A study of Mus musculus with 8 samples.

Results

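Complement is a set of blood and tissue proteins that mark particles, damaged cells and deposited lipoprotein for removal. C1q binds such surfaces and starts the classical pathway through the proteases C1r and C1s. Lectin-associated proteases start the lectin pathway, and factors B, D and properdin amplify both at the central component C3. The cascade releases the peptides C3a and C5a, which act on receptors of leukocytes, and ends in the membrane attack complex, while surface proteins such as CD55 and CD59 protect the body's own cells. In atherosclerotic arteries C1q is made mainly by macrophages, and many other components are made by fibroblasts, smooth muscle and fat cells. The 32 genes described here were listed by this function as components, receptors and regulators, and all 32 were found among the 24411 gene names of the count table. A filter on low counts kept 30 of them and removed Masp2 and Cd46, and 14679 genes were tested in all.

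RNA came from the whole aorta of 8 mice, 1 library per mouse. All 8 lacked apolipoprotein E (ApoE(-/-)), carried the caIKK2(+/+) transgene, which encodes an always active IKK2 kinase and EGFP behind a STOP-cassette, and ate a Western-type diet for 12 weeks. All received tamoxifen at 1 mg per 20 g of mouse on 5 days. The 5 caIKK2EC mice also carried BMX-CreERT2(+/-), whose Cre is active in arterial endothelium alone, so that endothelial RNA is only a part of what was measured. The 3 Control mice were littermates without the Cre, BMXCreERT2(-/-). Mice were 18 or 19 weeks old and female, except that Control 3 was a male of 19 weeks. Among Controls, sex and age therefore cannot be told apart from this 1 animal.

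Total counts were 23461655 to 30808502 per library. The 3 Controls and caIKK2EC 1 came from sequencing lane 7 and caIKK2EC 2 to 5 from lane 8, so that only caIKK2EC 1 can be compared with Controls within a lane. A fit with lane as a covariate therefore sets caIKK2EC 1 alone against the 3 Controls. Smooth muscle markers identified the tissue, with Acta2 at 4797 to 16801 CPM (the usual depth-scaled count, relative to the library's total and scaled for its composition). Control 3 stood apart in its cell type markers. Its summed CPM over 12 macrophage markers was 1649, against 5523 and 5811 in the other Controls and 6590.0 to 9864 in caIKK2EC libraries. Most of that gap among Controls was Lyz2, at 541 against 4059 and 4399 CPM, and without Lyz2 the sums were 1108 against 1464 and 1412. Its 8 smooth muscle markers summed to 36541, against 10062 to 21772 in all others. In caIKK2EC 1 the 8 adipocyte markers, from fat around the vessel, summed to 6555 CPM, against 696 to 3810 elsewhere. Of 7 hepatocyte markers, Serpina1a, Fgb, Apoa1 and Ttr were at 0 to 2.14 CPM and Alb at 0.117 to 6.19 CPM. The other 2, Ahsg and Cyp2e1, were at 8.62 to 27.5 and 18.1 to 207 CPM, and DESeq2 called Ahsg higher (log2 fold change 0.93, adjusted p = 0.0445).

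The 3 chains of C1q, the receptors C3ar1 and C5ar1 and the protective surface gene Cd55 were at higher levels in caIKK2EC aortas, by the DESeq2 test. Other members that leukocytes express, among them C5ar2, Cd93, Cfp, Fcna and Vsig4, did not pass (DESeq2 adjusted p = 0.11, 0.121, 0.139, 0.598 and 0.765). Classical proteases, alternative pathway genes and most regulators had smaller fold changes. The quasi-likelihood test of edgeR called 0 of the 30 members at a Benjamini-Hochberg adjusted p of 0.05, as it called 0.0% of all genes. At an unadjusted p under 0.05 it gave 12 members higher, where 9.66% of all genes were, and 1 lower, where 7.47% of all genes were. DESeq2, the package named in the submitters' processing notes, called 6 members higher and 0 lower at an adjusted p of 0.05, against 4.55% of all genes higher and 1.51% lower. The authors' deposited table holds the same 6 calls. Those 6 genes are C1qa, C1qb, C1qc, C3ar1, C5ar1 and Cd55. With C5ar2 they make up the 7 members in which every caIKK2EC library lay above every Control, an order found in 7.01% of all genes. In 0 members did every caIKK2EC library lie below every Control, against 3.22% of all genes.

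The median log2 fold change was 0.43 over the 30 members and -0.02 over all genes tested. By class it was 0.71 for receptors, 0.49 for the alternative pathway, 0.42 for C1q with the classical and lectin genes, -0.04 for regulators and -0.50 for the pair of terminal genes. Without Control 3 the class medians were 0.62, 0.35, 0.23, -0.04 and 0.13, so that the sign for the terminal pair turned. The median over members was then 0.20, with 8 members higher and 0 lower at an unadjusted edgeR p under 0.05, where 7.67% and 3.72% of all genes were. In whole tissue a change in the number of cells of a type cannot be told apart from a change in RNA per cell.

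**Figure D1:**
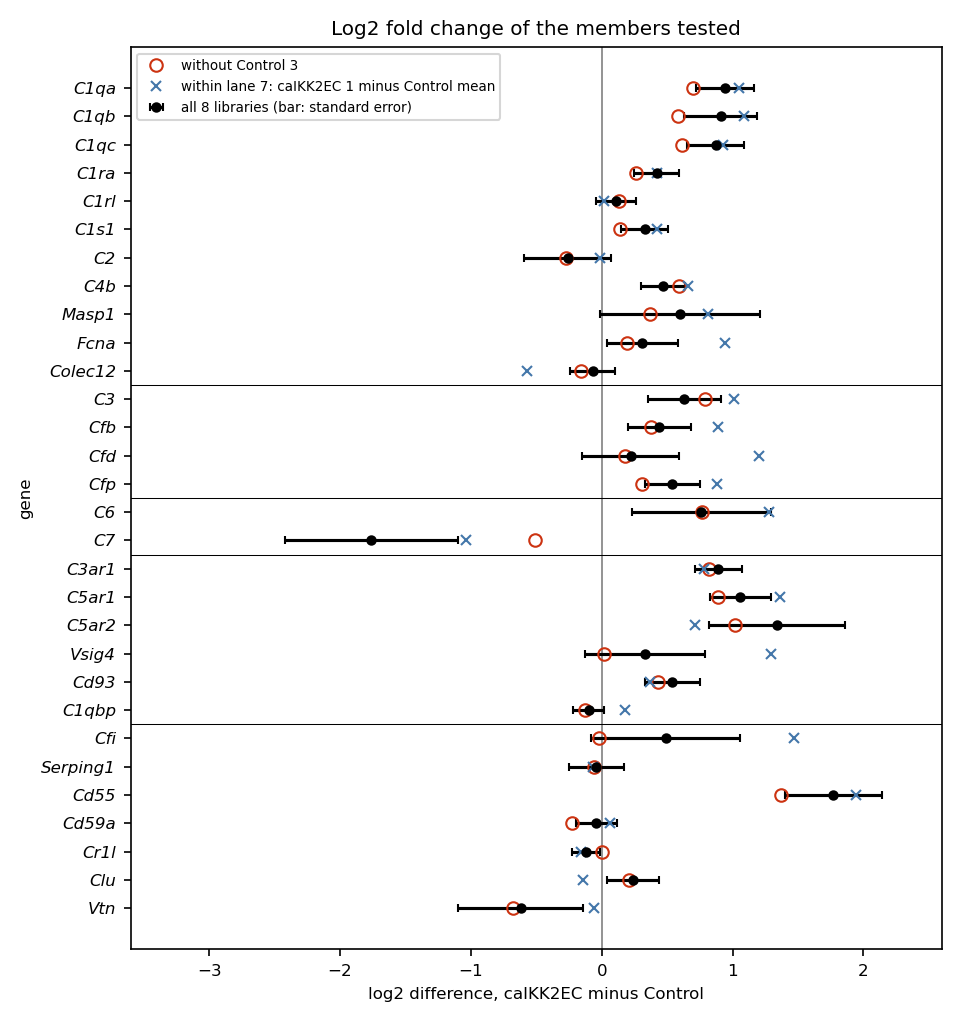
Log2 fold change (caIKK2EC over Control) of the 30 tested members by class: all 8 libraries (black, bar = SE) and without Control 3 (open circles). Crosses give another measure, the log2 CPM of caIKK2EC 1 minus the mean log2 CPM of Controls, within lane 7. Cd55 is highest at 1.77, and C7 moves from -1.76 to -0.51 when Control 3 is left out.

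**Figure D2:**
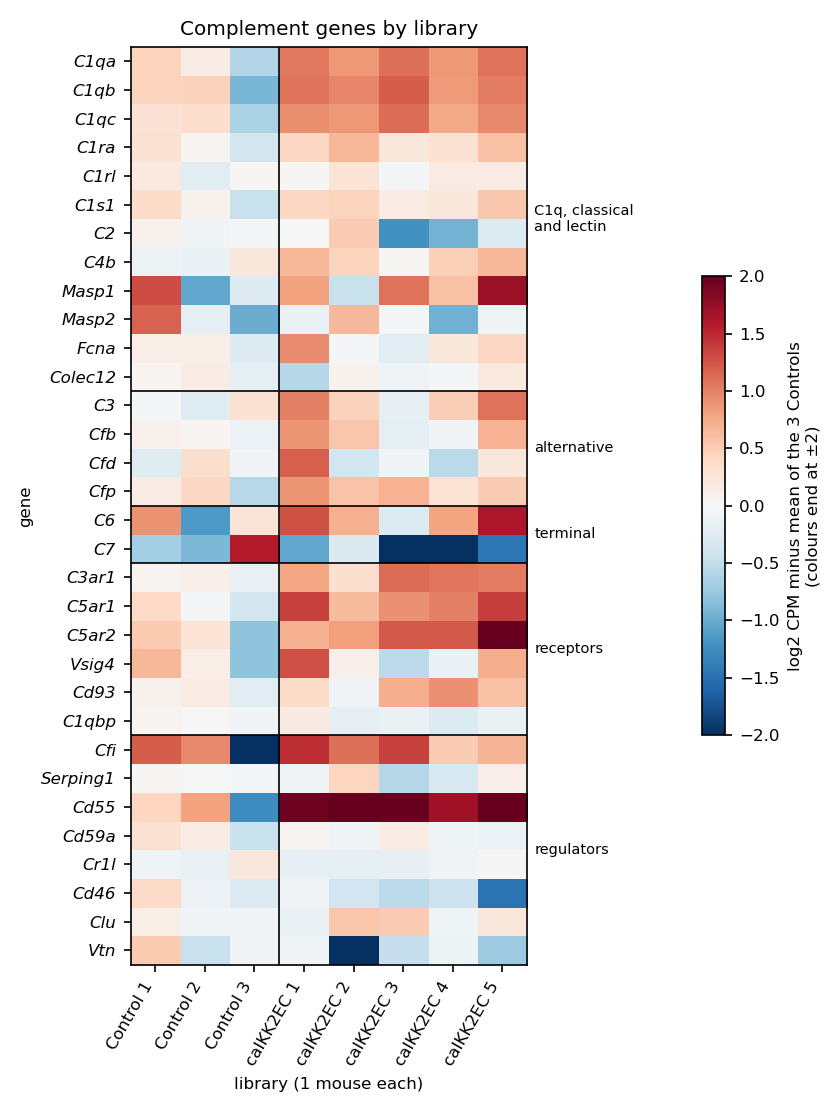
Difference of each member's log2 CPM from the mean of the 3 Controls (colour, ending at ±2), with genes in rows by class and the 8 libraries in columns. The C1q chains, C3ar1, C5ar1, C5ar2 and Cd55 are higher in all 5 caIKK2EC libraries than in each Control, while C7 is highest in Control 3.

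The 3 chains of C1q, which assemble into the recognition molecule of the classical pathway, differed between the groups in step. C1qa was at 558, 456 and 273 CPM in Control 1 to 3 and at 850.1, 747, 882, 753 and 875 CPM in caIKK2EC 1 to 5. The Controls were spread widely, with Control 3 lowest, and the highest of them stayed under the lowest caIKK2EC library. Control aortas averaged 429 ± 144 CPM (SD, n = 3) and caIKK2EC aortas 822 ± 66.1 CPM (SD, n = 5), giving log2 0.94 (SE 0.22, edgeR adjusted p = 0.109, DESeq2 adjusted p = 0.0011). C1qb was at 842, 845 and 329 CPM in Controls and at 1310.3, 1211, 1422, 1110.5 and 1261 CPM in caIKK2EC libraries. Its log2 fold change was 0.91 (SE 0.28, edgeR adjusted p = 0.165, DESeq2 adjusted p = 0.0216). C1qc was at 592, 614 and 313 CPM in Controls and at 922, 878, 1054, 817 and 945 CPM in caIKK2EC libraries, and differed by 0.87 on the log2 scale (SE 0.22, edgeR adjusted p = 0.129, DESeq2 adjusted p = 0.0043). In each chain Control 3 had the lowest value and the other 2 Controls lay close together for C1qb and C1qc.

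Without Control 3 the log2 fold changes of C1qa, C1qb and C1qc were 0.70, 0.58 and 0.61, and DESeq2 still called all 3 (adjusted p = 0.000102, 0.000686 and 0.000372). Within lane 7, caIKK2EC 1 lay above the Control mean by 1.05, 1.09 and 0.93 on the log2 CPM scale. With lane as a covariate, a fit that also rests on caIKK2EC 1 alone, the edgeR log2 fold changes were 0.99, 0.96 and 0.86. That fit is no test over all 8 libraries. DESeq2 did not call C1qb without caIKK2EC 3 (adjusted p = 0.0803) or without caIKK2EC 5 (adjusted p = 0.0721).

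The genes lie side by side on chromosome 4 (GRCm38, minus strand), C1qb at 136880129 to 136886187, C1qc at 136889804 to 136893065 and C1qa at 136895917 to 136898803, with gaps of 3.62 and 2.85 kb. Per kilobase of exon, C1qb gave 41.6% to 50.7% of the level of the 3 chains, C1qa 28.6% to 36.1% and C1qc 19.0% to 22.3% over the 8 libraries. Among caIKK2EC libraries these shares were tighter, with C1qb at 46.6% to 48.7%. Macrophage markers were higher as well. Of 12 listed markers, 10 were higher and 0 lower at an unadjusted edgeR p under 0.05, where 9.66% and 7.47% of all genes were. Without Control 3, 9 were higher. Their median log2 fold change was 0.84, and 0.61 without Control 3. Leaving out Lyz2, their summed CPM was 1108 to 1464 in Control and 1925 to 2385 in caIKK2EC libraries. Smooth muscle markers lay the other way, with all 8 log2 fold changes under 0 and a median of -0.66. Without Control 3 the median was -0.45 and Myocd was at 0.49. At an unadjusted edgeR p under 0.05, 6 were lower with all libraries and 0 without Control 3, where 7.47% and 3.72% of all genes were. DESeq2 called 1 of the 8 smooth muscle markers, Myh11, lower (adjusted p = 0.0299). The summed C1q level divided by that of Cd68, a lysosomal macrophage gene, was 3.01 to 4.88 in Control and 3.89 to 4.51 in caIKK2EC libraries, so that this ratio overlapped between the groups. The part of macrophage or smooth muscle RNA in the C1q difference was not tested beyond these values.

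**Figure D3:**
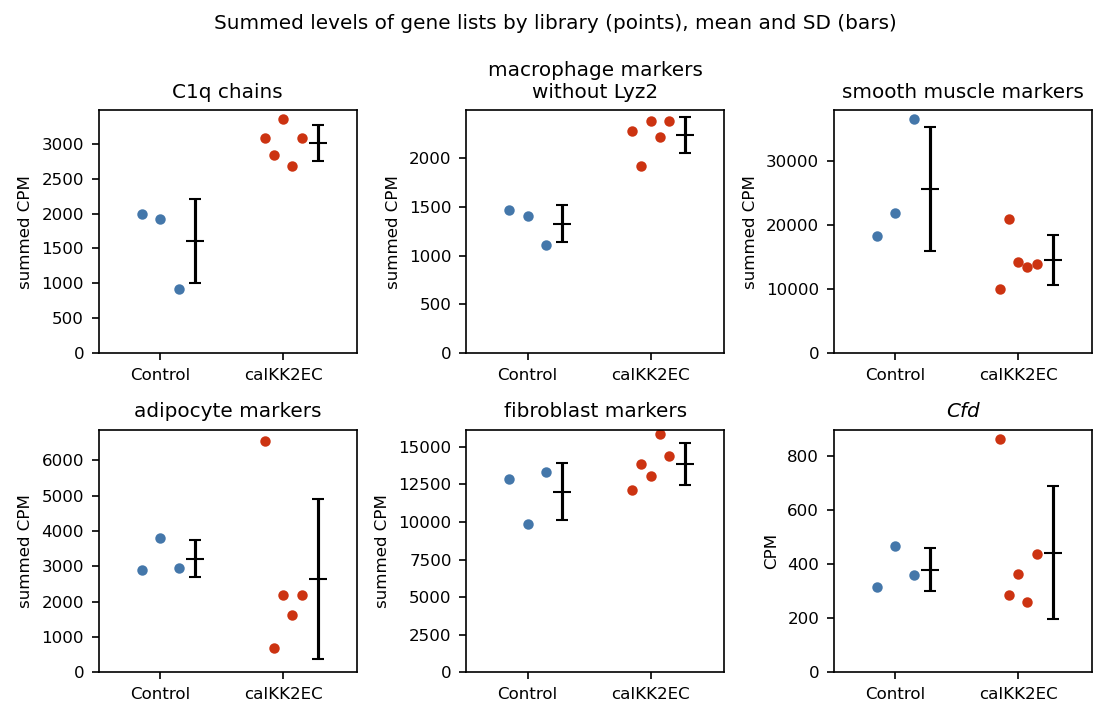
Summed CPM of the C1q chains and of marker lists, and CPM of Cfd, per library (points), with mean and SD. The macrophage sum leaves out Lyz2. The C1q chains and the macrophage markers are higher in all caIKK2EC libraries, smooth muscle markers are highest in Control 3, and adipocyte markers and Cfd are highest in caIKK2EC 1.

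Sequence from the 250 bases before the RefSeq transcription start of C1qb and C1qc is printed because these neighbouring genes had like fold changes. RefSeq windows on GRCm38.p6 were matched by symbol for 22 of the 32 members, and only bases outside exons of the GENCODE vM21 annotation are shown. Capitals mark the letters AGGAAGT or their reverse complement, the core bound by PU.1, a transcription factor of myeloid cells, and its ETS relatives. This motif was chosen after values and sequences were seen. The stretches are chr4:136886201-136886450 for C1qb and chr4:136893066-136893164 for C1qc, both on the minus strand. The C1qc stretch leaves out the 151 bases nearest the RefSeq start.
C1qb: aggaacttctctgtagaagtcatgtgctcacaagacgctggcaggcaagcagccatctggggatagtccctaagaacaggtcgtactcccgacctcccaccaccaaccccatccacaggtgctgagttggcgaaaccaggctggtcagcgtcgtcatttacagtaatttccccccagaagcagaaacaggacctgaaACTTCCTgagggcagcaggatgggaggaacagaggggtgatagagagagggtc
C1qc: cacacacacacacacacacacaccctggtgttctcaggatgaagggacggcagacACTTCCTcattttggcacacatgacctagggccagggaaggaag

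The marked letters lie 53 to 47 bases before the start of C1qb and 195 to 189 bases before that of C1qc. They occur in the windows of 6 of the 22 matched members (C1qb, C1qc, C5ar1, C5ar2, Fcna and Masp2), 27.3%, and in 8.8% of those of 27025 genes. Another 3 motifs were searched on both strands. The κB-like core GGGANNTTC, a shorter form of the NF-κB site, was in 0 of the 22 members and 3.7% of all genes. The interferon-gamma-activated site TTCNNNGAA was in Masp2 and C7, 9.09% of members and 8.13% of all genes. The interferon-stimulated core GAAANNGAA was in C5ar1 and Cd59a, 9.09% and 8.18%. A match or its absence describes only the letters of these windows.

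The serine proteases that C1q activates had smaller fold changes than C1q, a difference that was not tested. C1ra, the gene of C1r, was at 97.1, 81.3 and 60.6 CPM in Controls and at 105, 123, 91.4, 96.0 and 118 CPM in caIKK2EC libraries. The groups overlapped, because Control 1 lay above caIKK2EC 3 and 4. Its log2 fold change was 0.42 (SE 0.17, edgeR adjusted p = 0.241), and 0.26 without Control 3. C1s1, the gene of C1s, was at 127 to 221 CPM in Controls and at 192 to 250 CPM in caIKK2EC libraries (log2 fold change 0.33, SE 0.18, edgeR adjusted p = 0.382). C1rl, a C1r-like protease gene, was at 12.6 ± 1.78 CPM (SD, n = 3) and 13.6 ± 1.18 CPM (SD, n = 5). These 3 genes form a row on chromosome 6 with gaps of 1.76 and 6.90 kb, and their near-identical copies C1rb and C1s2 were at 0 to 0.311 and 0.0918 to 0.660 CPM, so reads of C1ra and C1s1 may in part be split.

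C4b and C2 encode the proteins that C1s cleaves to build the classical C3 convertase. C4b was at 246, 242 and 310 CPM in Controls and at 417, 359, 270, 370 and 422 CPM in caIKK2EC libraries. Only caIKK2EC 3 lay under the highest Control. The log2 fold change was 0.47 (SE 0.17, edgeR adjusted p = 0.21, DESeq2 adjusted p = 0.1), and 0.59 without Control 3, where DESeq2 called it. Reads of its near-identical copy C4a, at 0.320 to 1.35 CPM, may have been split between them. C2 was at 33.5 to 36.6 CPM in Controls and at 34.5, 49.3, 14.9, 18.0 and 28.5 CPM in caIKK2EC libraries, so the SD was 1.68 CPM over the 3 Controls and 13.8 CPM over the 5 others. Its log2 fold change of -0.26 (SE 0.33) did not pass (edgeR adjusted p = 0.742).

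No lectin pathway gene passed. Fcna, the gene of ficolin A, a lectin of macrophages, was at 5.51 to 7.30 CPM in Controls and at 12.8, 6.49, 5.68, 7.72 and 8.86 CPM in caIKK2EC libraries, with caIKK2EC 1 highest and the groups overlapping. Colec12, a collectin of the cell surface, was at 148 to 187 CPM in Controls and 114 to 194 CPM in caIKK2EC libraries (log2 fold change -0.07, SE 0.17). Masp1, the gene of a lectin pathway protease, was at 0.555 to 3.15 CPM and 0.885 to 4.24 CPM. Masp2, the gene of the protease that cleaves C4 and C2 in this pathway, had 3 to 24 counts per library and was not tested. Its gene body overlaps Tardbp on the opposite strand.

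Alternative pathway genes leaned higher without passing. C3, the component on which all pathways converge, was at 1136, 985 and 1438 CPM in Controls and at 2361, 1612, 1052, 1644 and 2481 CPM in caIKK2EC libraries. All caIKK2EC libraries but 1 lay above every Control, and that one, caIKK2EC 3, lay under Controls 1 and 3. The mean was 1186 ± 231 CPM (SD, n = 3) and 1829.8 ± 590.1 CPM (SD, n = 5), on the log2 scale a difference of 0.63 (SE 0.28, edgeR adjusted p = 0.289, DESeq2 adjusted p = 0.162). It was 0.79 without Control 3 and 1.01 within lane 7. Cfb, the gene of factor B, the protease of the alternative convertase, was also highest in caIKK2EC 1 and 5 and lowest in caIKK2EC 3, with 191 and 168 CPM in caIKK2EC 1 and 5, 153 in caIKK2EC 2 and 91.5 and 99.98 in caIKK2EC 3 and 4, against 95.1 to 110 CPM in Controls. Its log2 fold change was 0.44 (SE 0.24, edgeR adjusted p = 0.376). Cfb and C2 lie 85 bases apart on chromosome 17, and the log2 fold change of C2 had the opposite sign.

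Cfp, the gene of properdin, which leukocytes secrete to stabilise the convertase, was at 111, 133 and 67.8 CPM in Controls and at 184, 148, 162, 121 and 142 CPM in caIKK2EC libraries. Only caIKK2EC 4 lay under the highest Control. Its log2 fold change was 0.54 (SE 0.21, edgeR adjusted p = 0.24), and 0.31 without Control 3. Cfd, the gene of factor D or adipsin, is a fat cell product. It was at 314.7, 468 and 359 CPM in Controls and at 865, 287, 363, 259 and 438 CPM in caIKK2EC libraries, a log2 fold change of 0.22 (SE 0.37) that was -0.16 without caIKK2EC 1. With lane as a covariate, a fit that rests on caIKK2EC 1 alone, the log2 fold change of Cfd was 1.18. That library, with the highest Cfd, also had the highest sum of adipocyte markers. All 8 of those markers had a log2 fold change under 0, and 0 of them passed at an unadjusted edgeR p under 0.05. Within lane 7, where caIKK2EC 1 alone stands against Controls, all 8 markers were above 0. For example Adipoq, the adiponectin gene, was at -0.40 over all libraries and at 0.81 within lane 7. The fit with lane as a covariate rests on that same comparison and gave 0.78 for Adipoq. The ratio of Cfd to Adipoq was 2.15 to 2.6 in Controls and 3.1 to 5.8 in caIKK2EC libraries. Adipoq is 1 of the 8 markers, and their log2 fold changes ran from -0.76 (Cidea) to -0.02 (Fabp4). Ratios to the other markers were not taken, so a change of Cfd per fat cell was not tested.

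Of the terminal components, which form the membrane attack complex, only C6 and C7 are among the members. C7 was at 32.1, 27.4 and 154 CPM in Control 1 to 3 and at 25.0, 41.9, 8.84, 10.002 and 18.7 CPM in caIKK2EC libraries. Control 3 was far above all other libraries, and caIKK2EC 2 lay above Controls 1 and 2. The difference was -1.76 on the log2 scale (SE 0.66, edgeR adjusted p = 0.225), and -0.51 when Control 3 was left out. C7 was the 1 member lower at an unadjusted edgeR p under 0.05, and without Control 3 it was not. DESeq2 called it lower at an adjusted p of 0.05 when caIKK2EC 2 was left out. C6 was at 0.592 to 2.704 CPM in Controls and 1.15 to 4.50 CPM in caIKK2EC libraries (log2 fold change 0.76, SE 0.53).

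**Figure D4:**
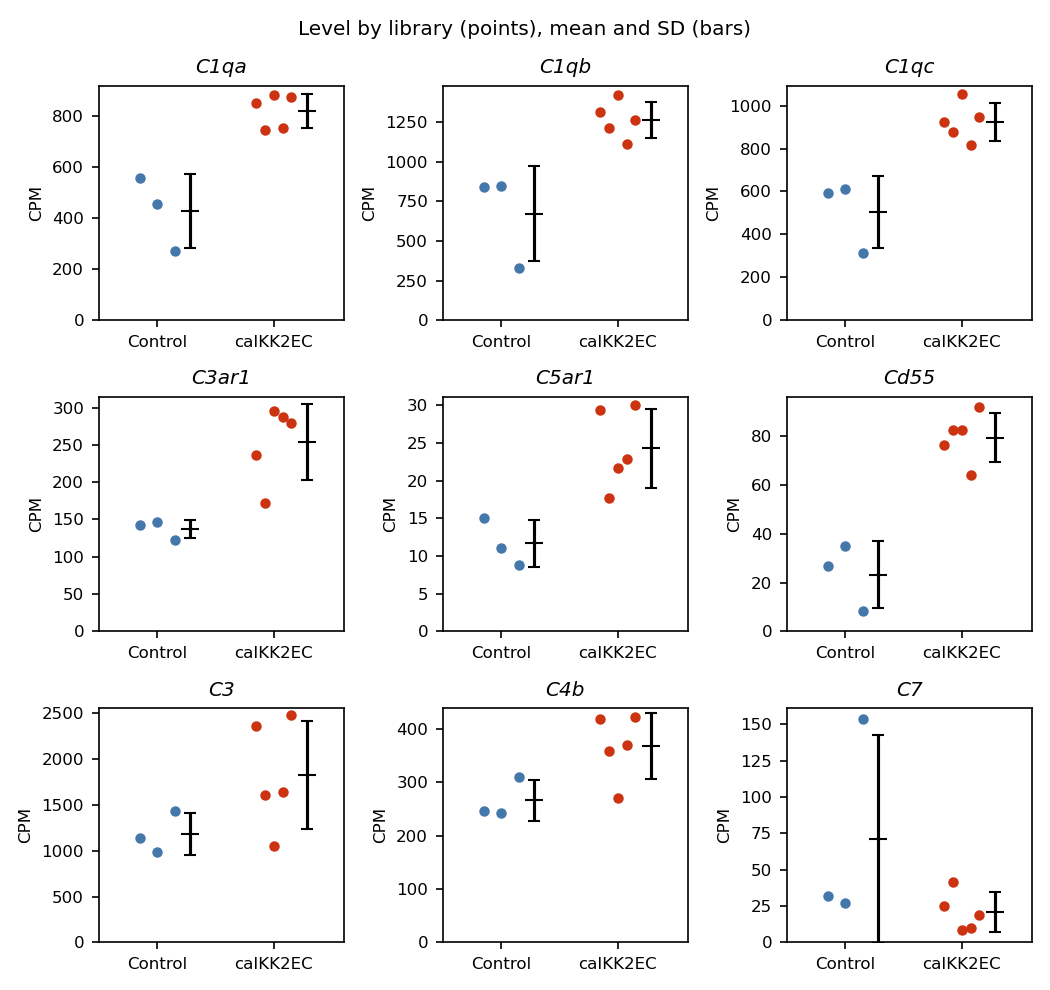
CPM of 9 members per library (points), with the mean and SD of each group, each axis from 0. The groups do not overlap for C1qa, C1qb, C1qc, C3ar1, C5ar1 and Cd55, they overlap for C3 and C4b, and the Control mean of C7 rests on Control 3 at 154 CPM.

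The receptors for C3a and C5a were higher in every caIKK2EC library. C3ar1, the C3a receptor of myeloid cells (chromosome 6, 122847138 to 122856161, minus strand), was at 142, 146 and 123 CPM in Controls and at 236, 172, 295, 287 and 280 CPM in caIKK2EC libraries. The Controls lay close together, and caIKK2EC 2 was the lowest of its group. The mean was 137 ± 12.4 CPM (SD, n = 3) and 254 ± 51.1 CPM (SD, n = 5), a 1.85-fold difference (log2 0.89, SE 0.18, edgeR adjusted p = 0.107, DESeq2 adjusted p = 0.000664). It had the smallest edgeR p of all members and stood at place 94 of the 14679 genes. The log2 fold change was 0.82 without Control 3, and the lane 7 difference in log2 CPM was 0.78. With lane as a covariate, which leaves caIKK2EC 1 alone against Controls, the edgeR log2 fold change of C3ar1 was 0.78. Its ratio to Cd68 was 0.309 to 0.406 in Control and 0.264 to 0.416 in caIKK2EC libraries.

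C5ar1, the main C5a receptor (chromosome 7, 16246743 to 16259540, minus strand), was at 15.1, 11.1 and 8.85 CPM in Controls and at 29.3, 17.7, 21.6, 22.8 and 30.0 CPM in caIKK2EC libraries. The lowest caIKK2EC library was again caIKK2EC 2, and it lay above all Controls. C5ar1 differed 2.08-fold (log2 1.06, SE 0.23, edgeR adjusted p = 0.109, DESeq2 adjusted p = 0.00114), with 0.89 without Control 3 and 1.36 within lane 7. With lane as a covariate, which leaves caIKK2EC 1 alone against Controls, the edgeR log2 fold change of C5ar1 was 1.33. C5ar2, the second C5a receptor, lies 2.59 kb away and was at 0.275 to 0.815 CPM in Controls and 0.932 to 2.85 CPM in caIKK2EC libraries. Its log2 fold change of 1.34 (SE 0.52) did not pass (edgeR adjusted p = 0.233, DESeq2 adjusted p = 0.11), and per kilobase of exon C5ar1 was at 9.45 and C5ar2 at 0.422 CPM in caIKK2EC aortas.

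The stretches before the starts of both called receptors are shown beside those of C1qb and C1qc. They are chr6:122856162-122856407 for C3ar1 and chr7:16259339-16259512 for C5ar1, both on the minus strand, with the PU.1 core and the interferon-stimulated core in capitals. C3ar1 holds none of the 4 motifs. C5ar1 holds the PU.1 core 72 to 66 bases before the start, sharing 1 base with an interferon-stimulated core at 66 to 58 bases, and again at 190 to 184 bases, outside the stretch printed.
C3ar1: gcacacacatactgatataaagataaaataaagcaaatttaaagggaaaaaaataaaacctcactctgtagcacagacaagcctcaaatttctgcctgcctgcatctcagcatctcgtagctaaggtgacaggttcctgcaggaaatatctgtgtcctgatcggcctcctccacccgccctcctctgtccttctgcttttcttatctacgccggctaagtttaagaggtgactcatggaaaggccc
C5ar1: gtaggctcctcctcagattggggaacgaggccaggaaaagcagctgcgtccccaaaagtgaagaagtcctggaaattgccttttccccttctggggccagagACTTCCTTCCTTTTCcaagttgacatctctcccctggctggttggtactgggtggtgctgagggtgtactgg

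Of the other receptors none passed. Cd93, a C1q-binding glycoprotein of endothelium and myeloid cells, was at 250.4, 265 and 204 CPM in Controls and at 308.6, 230.4, 393, 451 and 355 CPM in caIKK2EC libraries. Only caIKK2EC 2 lay within the Control range, and the log2 fold change was 0.54 (SE 0.21, edgeR adjusted p = 0.237, DESeq2 adjusted p = 0.121). The 9 endothelial markers had a median log2 fold change of 0.16, and 0.00 without Control 3. DESeq2 called 1 of them, Vwf, higher (log2 fold change 0.59, adjusted p = 0.0488). Vsig4, the complement receptor of resident macrophages, was at 1.79 to 5.04 CPM in Controls and 2.18 to 7.89 CPM in caIKK2EC libraries, and the log2 difference of 0.33 shrank to 0.02 when Control 3 was left out. C1qbp, a mitochondrial protein that also binds C1q, was at 62.7 ± 2.54 CPM (SD, n = 3) and 58.4 ± 7.41 CPM (SD, n = 5).

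Among the regulators, Cd55 stood highest in fold. Cd55 encodes decay-accelerating factor, a membrane protein that takes apart the C3 convertases on the cell's own surface (chromosome 1, 130439027 to 130462744, minus strand). It was at 26.7, 34.8 and 8.35 CPM in Controls and at 76.1, 82.3, 82.4, 64.1 and 91.7 CPM in caIKK2EC libraries. Every caIKK2EC value lay well above the highest Control, and Control 3 was again lowest. The mean was 23.3 ± 13.5 CPM (SD, n = 3) and 79.3 ± 10.2 CPM (SD, n = 5), a 3.40-fold difference (log2 1.77, SE 0.37, edgeR adjusted p = 0.107, DESeq2 adjusted p = 0.000166). Without Control 3 the log2 fold change was 1.37 and DESeq2 called it (adjusted p = 2.59e-10). In log2 CPM minus the Control mean, caIKK2EC 1, in lane 7, was at 1.94 and all 5 caIKK2EC libraries at 1.69 to 2.21. The edgeR fit with the lane covariate, which rests on caIKK2EC 1 alone, gave a log2 fold change of 1.71. The near-identical copy Cd55b was at 0 to 0.171 CPM. The antisense gene model Gm16083 overlaps Cd55.

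The window before the start of Cd55, chr1:130462745-130462994 on the minus strand, is shown because it is the member with the largest fold among those called. It holds none of the 4 motifs, so no letters are in capitals. Its 64.0% G and C and 8 CpG pairs compare with a median of 52.4% and 6 over all 32851 windows.
Cd55: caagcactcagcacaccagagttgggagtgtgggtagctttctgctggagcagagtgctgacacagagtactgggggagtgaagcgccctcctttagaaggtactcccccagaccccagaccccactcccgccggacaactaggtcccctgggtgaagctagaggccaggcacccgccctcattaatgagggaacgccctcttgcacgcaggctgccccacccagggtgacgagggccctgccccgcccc

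The remaining surface regulators did not pass. Cr1l, the gene of Crry, which in mice controls C3 on most cells, was at 54.4 to 70.9 CPM in Controls and 53.1 to 61.2 CPM in caIKK2EC libraries (log2 fold change -0.12, SE 0.11). Cd59a, which blocks the membrane attack complex, was at 37.5 to 63.0 CPM and 47.0 to 57.7 CPM (log2 fold change -0.04, SE 0.16). Cd46, largely a testis gene in mice, had 3 to 15 counts per library and was not tested. Of these surface regulators Cd55 was the one that passed DESeq2, and the difference between Cd55 and the others was not tested.

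Of the soluble regulators none passed. Clu, the gene of clusterin, which binds the terminal complex and lipids, was at 1712 to 1932 CPM in Controls and at 1619, 2639, 2547, 1698 and 2091 CPM in caIKK2EC libraries. It was above all Controls in 3 of the 5 (log2 fold change 0.24, SE 0.20, edgeR adjusted p = 0.572). Serping1, the gene of C1 inhibitor, was at 617 to 648 CPM in Controls and at 605, 854, 426, 514 and 678 CPM in caIKK2EC libraries. The caIKK2EC libraries lay on both sides of the narrow Control range (log2 fold change -0.04, SE 0.21, edgeR adjusted p = 0.94). Cfi, the gene of factor I, which cuts C3b and C4b, was at 9.26, 7.80 and 0.826 CPM in Controls and at 5.66 to 11.1 CPM in caIKK2EC libraries. Control 3 alone was low, and the log2 fold change of 0.49 (SE 0.57) was -0.02 without it. Vtn, the gene of vitronectin, which keeps the terminal complex out of membranes, was at 1.07 to 2.19 CPM and 0.295 to 1.44 CPM (log2 fold change -0.62, SE 0.48).

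Per kilobase of exon, the most abundant members in caIKK2EC aortas were C1qb at 1161, C1qa at 790, Clu at 617, Cfd at 480 and C1qc at 478 CPM per kb, and C3 was at 356. In Control aortas C1qb was at 618, Clu at 521, Cfd and C1qa at 413 and 412, C1qc at 262 and C3 at 231 CPM per kb. C3ar1 went from 31.9 to 59.0 and Cd55 from 4.795 to 16.3 CPM per kb between the group means.

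Outside the members, 34 of 35 further complement genes were in the table and 17 were tested. At an unadjusted edgeR p under 0.05, 4 were higher and 0 lower, where 9.66% and 7.47% of all genes were. At an adjusted p of 0.05 edgeR called 0 of them. DESeq2 called 4 higher and 0 lower, against 4.55% and 1.51% of all genes. The median log2 fold change of those tested was 0.17. Itgam, Itgax and Itgb2 encode the chains of the integrin receptors CR3 and CR4 for cleaved C3 and had the smallest p. Itgax was at 229 ± 42.8 CPM (SD, n = 3) and 382 ± 44.4 CPM (SD, n = 5), a log2 fold change of 0.74 (DESeq2 adjusted p = 0.000846). Itgam, also one of the macrophage markers, was at 82.3 ± 5.70 and 152 ± 35.9 CPM (log2 fold change 0.88, DESeq2 adjusted p = 0.00293). Itgb2, their common chain, was at 243 ± 42.6 and 407 ± 64.6 CPM (log2 fold change 0.74, DESeq2 adjusted p = 0.00336). The other gene called was Ptx3, a pentraxin that binds C1q, named after its values were seen, at 6.61 ± 6.16 and 19.4 ± 4.79 CPM (DESeq2 adjusted p = 0.0285). Calr, the gene of calreticulin and one of the abundant genes, was at 962 ± 42.9 and 1052 ± 55.7 CPM.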

How the data were processed

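Gene counts from poly(A) RNA of whole aorta were deposited for 3 Control and 5 caIKK2EC mice. Reads were aligned with STAR 2.7.0e to GRCm38 (mm10) after FastQC 0.11.5, and DESeq2 1.22.2 was used, per the submitters' processing notes; which program counted reads, on which annotation and strand setting, is not given in sources used here. The deposited table of the authors' comparison holds a normalized signal, log2 fold changes, a score (the Wald statistic) and p-values, per the file headers.

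From the counts, edgeR 4.0.16 (TMM scaling, filterByExpr, robust quasi-likelihood test) compared the groups over all 14679 genes passing the filter, with Benjamini-Hochberg adjustment. DESeq2 1.42.0 on the same counts was an alternative, with other normalization, filters, lane, age, a replicate block and each library left out. SE is the log2 fold change over the root of the test statistic. CPM values use TMM library sizes. The scripts were tested on simulated data. Of the gene names, 27 had turned into dates. The members and lists were chosen with earlier results of these data known. All 32 members are named, and of other complement genes the 3 with the smallest p and the 3 with the highest CPM, 1 of which is not reported here. No pair of libraries was alike within counting noise (lowest chi-square per degree of freedom 16.9). Whether 8 separate animals were handled in batches other than lane was not tested.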

Additional observations from a re-analysis of the deposited data

How the results depend on the processing

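Among single members, 420 values kept their direction and their side of the threshold, 15 gained a call and 15 reversed. The main fit called 0 of all genes, so no call could be lost. The other edgeR settings, except age and without caIKK2EC 2, also called 0 of all genes. In those a kept value tells only of its direction. Members called at an adjusted p of 0.05 were 0 with edgeR, 6 with DESeq2, 7 with age as a covariate, and 0 to 2 on leaving out each library. The 2, C3ar1 and C5ar1, came without caIKK2EC 2, where edgeR called 230 genes higher and 129 lower, against 407 and 254 with age. Calls with lane as a covariate are left out, because that fit sets caIKK2EC 1 alone against Controls. DESeq2 called 5 to 8 members on leaving out each library. The 8, without caIKK2EC 2, were 7 higher and 1 lower, C7. The 1 lower member, C7, became 0 with no low-count filter, and was 0 to 1 on leaving out each library. It was 0 without Control 3, caIKK2EC 4 or caIKK2EC 5. Members with every caIKK2EC library below every Control were 0 to 1, with 1 without caIKK2EC 1 (C1qbp) or caIKK2EC 2 (C7). The median over members was 0.65 with lane as a covariate, and 0.20 to 0.56 on leaving out each library. For the alternative pathway it was 0.94 with lane. Both values with lane rest on caIKK2EC 1 alone against Controls. In log2 CPM minus the Control mean, that library was at 1.20 for Cfd, 1.01 for C3, 0.89 for Cfb and 0.88 for Cfp. The cause of the other shifts was not tested.

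With lane as a covariate, C1qbp was at 0.18, Cd59a at 0.03 and Clu at -0.15 on the log2 scale, and Cd59a was at 0.09 with age. On leaving out each library, Cd59a ranged from -0.23 to 0.13, Colec12 from -0.16 to 0.05, Cfi from -0.02 to 0.96, Cr1l from -0.18 to 0.00, Cfd from -0.16 to 0.42 and Serping1 from -0.19 to 0.06.

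Deviations of same-numbered libraries of the groups correlated at 0.335, 0.099 and 0.097. Controls 1 and 2 correlated best with the caIKK2EC library of their own number, and Control 3 with caIKK2EC 4 (0.18). The numbers were not taken as pairs in the main fit. With the replicate number as a block, caIKK2EC 4 and 5 have no Control of their number. The group difference then rests on libraries 1 to 3 of each group. In that fit edgeR called 0 members, with 8 higher and 0 lower at an unadjusted p under 0.05. DESeq2 called 5 (not C3ar1, adjusted p = 0.0851), the median was 0.36 and Cd59a was at 0.05.

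Masp2 and Cd46 were too low to test. Intervals from counting alone would not cover the spread between animals.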
